A study of Mus musculus with 6 samples.

Results

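Genomic imprinting leaves a gene active mainly on the copy inherited from one parent, and many imprinted genes set how far tissues grow before and shortly after birth. Their RNA is abundant in fetal mesoderm and its fibroblasts and falls in most organs as growth slows. The 9 genes described here were taken by name from the 34745 genes of the deposited expression table, and every one of the 9 was found there and had enough counts to be tested. *H19*, *Meg3*, *Rian*, *Grb10* and *Cdkn1c* are known as genes read mainly from the maternal copy, although *Grb10* is read from the paternal copy in neurons, and *Dlk1*, *Peg3*, *Plagl1* and *Mest* as genes read from the paternal copy. The counts do not separate the parental copies, so each value is the sum of both.

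The libraries were made from cardiac fibroblasts of the left ventricular myocardium of male mice aged 8 to 10 weeks, taken on Day 7 after myocardial infarction (MI) brought on by tying off a coronary artery for good. Both groups had MI and neither includes a sham operation. In 3 libraries the mice were KDM5B knockouts (KO), and in 3 libraries they were littermate wild-type mice (WT). In the knockouts CRISPR/Cas9 deleted, in the whole animal, the part of *Kdm5b* that holds the JmjC domain of this histone H3K4 demethylase. The paper states that the deletion shifts the reading frame and that KDM5B function is lost. The labels do not say whether each library is a separate animal, so p-values measure the spread between these libraries. Totals ran from 12025403 to 15329427 counts per library. *Kdm5b* itself had a log2 fold change of -0.22 (edgeR adjusted p = 0.0574) in the libraries labelled KO, so groups are named by their labels. It passed with the upper quartile (adjusted p = 0.0324), with replicate number as a block (adjusted p = 0.0271) and without WT replicate 1 (adjusted p = 0.0188). These values are per gene and do not show the deleted part. Of the gene lists that check the cells, all 15 fibroblast markers were counted, at summed CPM (counts scaled to a common library total) of 39091 to 45979 in KO libraries and 54405 to 57830 in WT libraries, while lymphocyte and erythroid markers summed to at most 0.901 and 0.300 CPM.

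Of the 9 genes, 7 fell and 1 rose in the libraries labelled KO with edgeR's quasi-likelihood test over 14084 genes, taking adjusted p-values below 0.05 as past the threshold. Of all tested genes 30.2% passed, 12.5% lower and 17.7% higher. *Mest*, which encodes a hydrolase-like protein of mesoderm and growing fat tissue, was the gene that rose, by 1.78-fold. *H19*, *Meg3*, *Rian*, *Grb10*, *Cdkn1c*, *Peg3* and *Plagl1* fell by 18.7% to 37.9%, and *Dlk1* did not pass the threshold (adjusted p = 0.0597). In 8 of the 9 the libraries of the labels did not overlap, against 47.0% of all tested genes (22.4% lower and 24.7% higher). The median log2 fold change of the 9 was -0.41 beside -0.015 over all genes tested. Together the 9 genes held between 0.119% and 0.134% of the counts in KO libraries and between 0.160% and 0.162% in WT libraries. Fewer cells of a type and less RNA per cell cannot be told apart in such libraries.

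Markers of other cell types also moved with the labels. The median log2 fold change was -0.40 for the 15 fibroblast markers (13 lower), -0.42 for the 12 cardiomyocyte markers tested (9 lower), -0.39 for the 12 macrophage markers (7 lower, 2 higher), -0.42 for the 8 mural markers tested (5 lower, 1 higher) and -0.41 for the 10 epicardial markers (9 lower, 1 higher). Endothelial markers rose in 15 of 18 genes, with summed levels of 2324 to 3206 CPM in KO libraries against 604 to 608 CPM in WT libraries, and mitotic genes rose in 17 of 18, with 1202 to 1359 CPM against 669 to 670 CPM. In none of these lists was a marker at 0 in every library. Their part in the change of the imprinted genes was not tested. When 24 cardiomyocyte and macrophage markers set the scale, at a median ratio of 1 between libraries, the median of all genes moved from -0.015 to 0.36, *Mest* rose by 1.21 on the log2 scale (edgeR adjusted p = 4.3e-05), and none of the other 8 passed the threshold, with values from -0.31 (*Cdkn1c*) to 0.078 (*Rian*). The median of the 9 minus that of all genes was -0.397 before this scaling and -0.398 with it. The scaling genes come from lists whose own medians lay near that of the 9, so this scaling cannot tell why the 9 fell.

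**Figure D1:**
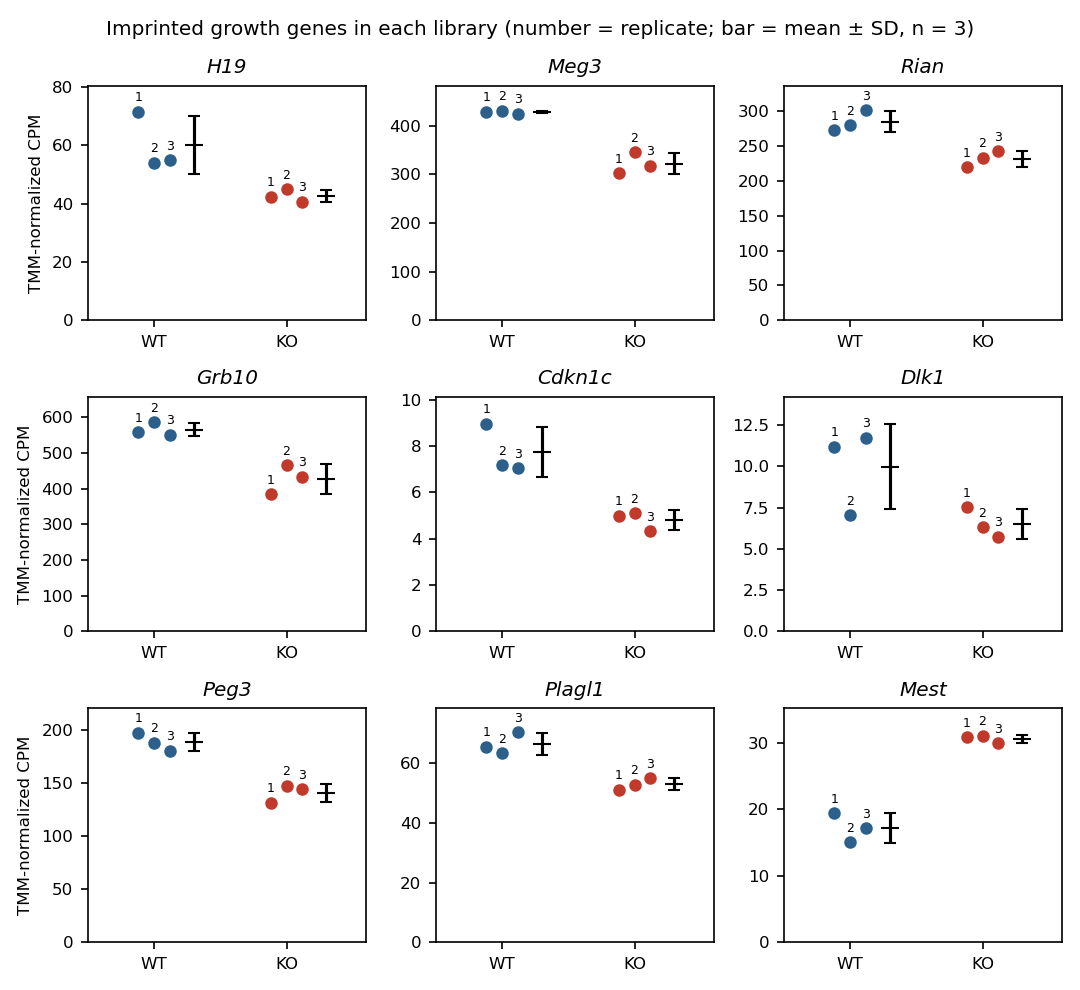
TMM-scaled CPM of the 9 genes in each library (vertical axes start at 0), with WT libraries in blue, KO libraries in red, replicate numbers above the points and the mean ± SD of 3 libraries as bars. The KO points lie below the WT points in 7 panels, overlap them for *Dlk1* and lie above them for *Mest*.

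*H19* (ENSMUSG00000000031, chromosome 7 from 142575529 to 142578143 on the minus strand in mm10) is a long noncoding RNA that shares enhancers with its neighbour *Igf2* and is the precursor of a microRNA. It had 71.5, 54.1 and 54.9 TMM-scaled CPM in WT libraries and 42.4, 44.9 and 40.7 CPM in KO libraries. WT replicate 1 was the highest, and the WT and KO libraries did not overlap. The log2 fold change was -0.50 (standard error, SE, 0.11, edgeR adjusted p = 0.0117), and without WT replicate 1 it was -0.35. The microRNA arms that lie inside *H19*, shown because they are the known small products of this transcript, are given here from RefSeq (GRCm38.p6, minus strand, chr7:142577112-142577133 and chr7:142577078-142577099) with the seed, bases 2 to 8, in capitals. These libraries count the long transcript and hold no separate value for the microRNA.
mmu-miR-675-5p: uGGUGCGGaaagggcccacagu
mmu-miR-675-3p: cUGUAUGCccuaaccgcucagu

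*Igf2*, the growth factor gene 72.6 kb from *H19* that is read from the paternal copy, varied more between libraries of a label than between labels. It had 62.4, 63.8 and 16.2 CPM in WT libraries and 42.8, 43.1 and 68.1 CPM in KO libraries, so that WT replicate 3 was the lowest of all and KO replicate 3 the highest. Its log2 fold change was 0.12 (SE 0.44, edgeR adjusted p = 0.864), an error too wide to detect a change of the size seen in *H19*. Without WT replicate 3 the value was -0.30 (edgeR adjusted p = 0.325). *H19* did not share the low value of WT replicate 3, where *H19* had 3.39 counts for each count of *Igf2* and the other WT libraries had 1.15 and 0.848.

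*Cdkn1c* (ENSMUSG00000037664, chromosome 7 from 143458350 to 143461050, 880 kb from *H19*) encodes an inhibitor of cyclin-dependent kinases and is the member of that family that is imprinted. Its counts ran from 61 to 128 per library, the lowest of the 9 genes in every library but WT replicate 2, where *Dlk1* had 103 and *Cdkn1c* 105, and all were above the floor of 3 counts that a value of 0 would allow. It had 8.96, 7.17 and 7.04 CPM in WT libraries and 4.99, 5.10 and 4.32 CPM in KO libraries, without overlap and again with WT replicate 1 the highest. The log2 fold change of -0.69 (SE 0.16, edgeR adjusted p = 0.0121) was the lowest of the 9, and without KO replicate 3 it was -0.61 with an adjusted p of 0.0514. *Dlk1* was lower than *Cdkn1c* without WT replicate 2 (-0.82 against -0.74) and without KO replicate 1 (-0.72 against -0.71). Over all alternatives for *Cdkn1c* other than marker scaling the adjusted p ran from 0.00889 to 0.0514.

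The next 3 genes lie on chromosome 12 in the *Dlk1*-*Dio3* region, where the noncoding RNAs are read from the maternal copy and the protein-coding genes from the paternal copy. *Meg3* (ENSMUSG00000021268, 109541001 to 109571726), a long noncoding RNA at the head of the maternal transcripts, had 428, 431 and 425 CPM in WT libraries and 302, 346 and 317 CPM in KO libraries. The 3 WT libraries agreed within a coefficient of variation of 0.706%, while the KO libraries spread by 6.84% and all lay lower. Its log2 fold change was -0.41 (SE 0.055, edgeR adjusted p = 9.9e-04). *Rian* (ENSMUSG00000097451, 109603940 to 109661716), which starts 32.2 kb further on and carries many small nucleolar RNAs, had 272, 280 and 301 CPM in WT libraries and 219, 233 and 242 CPM in KO libraries. It showed the smallest fall of the 7, with a log2 fold change of -0.30 (SE 0.057, edgeR adjusted p = 0.00557) and no overlap between the labels. *Plagl1* was close at -0.33 (SE 0.064) and fell less than *Rian* with limma (-0.23 against -0.24).

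*Dlk1* (ENSMUSG00000040856, 109452823 to 109463336), 77.7 kb before *Meg3*, encodes a transmembrane protein related to Notch ligands that holds back the differentiation of fat cell precursors. It had 11.2, 7.03 and 11.7 CPM in WT libraries and 7.53, 6.30 and 5.74 CPM in KO libraries. WT replicate 2 lay among the KO libraries, and this was the one member in which the labels overlapped. The log2 fold change of -0.62 (SE 0.21) did not pass the threshold (edgeR adjusted p = 0.0597), and over its alternatives the adjusted p ran from 0.0108 without WT replicate 2 to 0.372 with marker scaling. On the log2(FPKM + 1) scale, which understates changes of low genes, limma gave -0.18 for *Dlk1* and -0.44 for *Cdkn1c*. Of the other genes of the region, *Mirg*, a further maternal noncoding RNA 68.0 kb beyond *Rian*, had 11.9, 11.8 and 12.1 CPM in WT libraries and 8.68, 11.3 and 8.25 CPM in KO libraries (log2 fold change -0.34, edgeR adjusted p = 0.1), and *Begain* fell (log2 fold change -0.92, SE 0.27, adjusted p = 0.0323), a call that was lost without any one of KO replicates 1, 2 and 3 or WT replicate 1 (adjusted p up to 0.0988) and with marker scaling (-0.55, adjusted p = 0.1). *Rtl1* and *Dio3* had at most 1 and 6 counts in any library and could not be tested. For each count of *Rian* there were 1.57, 1.54 and 1.41 counts of *Meg3* in WT libraries and 1.38, 1.49 and 1.31 in KO libraries, so the ratio overlapped between the labels (exact two-sided permutation test, p = 0.2, and 0.467 adjusted over 7 pairs of genes compared).

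One of the 2 promoter windows of *Meg3* is shown because *Meg3* heads the maternal transcripts of the region, of which *Meg3* and *Rian* fell. RefSeq windows of 300 bases, 250 before and 50 after a transcript start, were given for 7 of the 9 genes, all but *H19* and *Cdkn1c*, in 11 windows (GRCm38.p6). They were searched on both strands for GGGGCCCC, the core bound by the *Plagl1* protein, and for the YY1 motif GCCATNTT. The GC box was searched as GGGCGG. The TATA box was searched as TATAAA, and matches are in capitals. TATAAA was found in the shown window of *Meg3* alone (plus strand, chr12:109540746-109541045), where the matches on the 2 strands overlap, and in 13.6% of all 32851 windows. The other window of *Meg3* held no match to any of the strings searched.
Meg3 promoter: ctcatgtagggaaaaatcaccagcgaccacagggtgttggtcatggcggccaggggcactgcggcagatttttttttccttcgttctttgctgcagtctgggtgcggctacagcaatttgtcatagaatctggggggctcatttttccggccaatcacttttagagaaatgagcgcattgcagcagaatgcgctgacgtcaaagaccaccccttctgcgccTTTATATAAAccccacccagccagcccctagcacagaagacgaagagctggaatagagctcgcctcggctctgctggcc

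*Peg3* (ENSMUSG00000002265, chromosome 7 from 6703892 to 6730421), a large zinc finger protein known for its part in maternal behaviour and stem cell upkeep, had 197, 188 and 180 CPM in WT libraries and 131, 147 and 144 CPM in KO libraries. The KO libraries were all lower, and the log2 fold change was -0.42 (SE 0.061, edgeR adjusted p = 0.00149). Its neighbour *Zim1* had a log2 fold change of -0.30 (adjusted p = 0.205), and *Usp29* had at most 16 counts in a library and was not tested. *Plagl1* (ENSMUSG00000019817, chromosome 10 from 13060504 to 13131694), a zinc finger transcription factor that restrains the cell cycle and acts on other imprinted genes, had 65.5, 63.2 and 70.2 CPM in WT libraries and 51.0, 52.7 and 54.9 CPM in KO libraries. Its log2 fold change was -0.33 (SE 0.064, edgeR adjusted p = 0.00613), with no overlap between the labels. The related factors *Plag1* and *Plagl2* had log2 fold changes of -0.23 and 0.059, and neither passed the threshold.

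GGGGCCCC, the core bound by the *Plagl1* protein, was found in the window of *Peg3* alone among those of the 7 genes, where it begins 201 bases before the transcript start, and in 1.08% of all windows. GGGCGG was found in windows of *Mest*, *Plagl1* and *Grb10*, beside 35.7% of all windows, and GCCATNTT in none of the 11. The *Peg3* window is shown for that match (minus strand, chr7:6730370-6730669). A match is a string of letters and says nothing of binding.
Peg3 promoter: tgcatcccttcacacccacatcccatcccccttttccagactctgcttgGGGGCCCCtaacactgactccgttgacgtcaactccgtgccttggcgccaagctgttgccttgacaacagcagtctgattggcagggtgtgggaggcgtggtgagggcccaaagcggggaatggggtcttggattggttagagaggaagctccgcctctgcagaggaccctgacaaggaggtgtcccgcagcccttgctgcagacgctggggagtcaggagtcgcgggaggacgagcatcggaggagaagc

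*Grb10* (ENSMUSG00000020176, chromosome 11 from 11930508 to 12038683) encodes an adaptor protein that dampens signaling from the insulin and IGF1 receptors, and it was the most abundant of the 9 genes. It had 558, 587 and 551 CPM in WT libraries and 384, 466 and 433 CPM in KO libraries. The KO libraries spread more (9.72% against 3.34%), and all of them lay below the WT libraries. The log2 fold change was -0.40 (SE 0.070, edgeR adjusted p = 0.00364). *Ddc*, which adjoins *Grb10*, had a log2 fold change of 0.13 (adjusted p = 0.661), and *Cobl* rose by 0.53 on the log2 scale (adjusted p = 0.0398), a call kept without KO replicate 2 (0.0138) and lost when any other library was left out (adjusted p up to 0.123), with DESeq2 (adjusted p = 0.0885) and with limma (adjusted p = 0.0683).

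*Mest* (ENSMUSG00000051855, chromosome 6 from 30723547 to 30748465) was the exception. It had 19.4, 15.0 and 17.1 CPM in WT libraries and 30.8, 31.1 and 29.9 CPM in KO libraries. The KO libraries lay close together, with a coefficient of variation of 1.95% against 12.7% in the WT libraries, and all were above every WT library. The log2 fold change was 0.83 (SE 0.10, edgeR adjusted p = 6.8e-04), it lay between 0.66 and 1.21 under the alternatives, and it passed the threshold in each of the 14 fits, though not when a fold above 2 was asked in addition. An exact two-sided permutation test of the libraries gave p = 0.1 for *Mest*, as for each of the 7 genes that fell, which is the smallest p that 3 libraries against 3 allow. The fold change of *Mest* stood near the median of the mitotic list (0.86) and below that of the endothelial list (2.64), and no link to either was tested.

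The 3' end of *Mest* lies over that of *Copg2* on the other strand for 912 bases, or 23.1% of its exon bases in GENCODE M21. The library kit keeps the strand, but how the counting treated strand is not given in the sources used here, so reads of the pair could be shared. *Copg2* had 36.7, 40.8 and 41.7 CPM in WT libraries and 55.7, 45.2 and 49.3 CPM in KO libraries, a rise of 0.33 on the log2 scale (SE 0.092, edgeR adjusted p = 0.0271) that did not pass without KO replicate 1 or 3 or WT replicate 1 or 2 (adjusted p up to 0.0918). *Mest* had 0.553, 0.688 and 0.607 counts for each count of *Copg2* in KO libraries and 0.529, 0.368 and 0.411 in WT libraries, and the labels did not overlap (exact two-sided permutation test, p = 0.1, and 0.35 adjusted over 7 pairs). The share of such reads in the count of *Mest* was not tested.

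One of the 3 promoter windows of *Mest* is shown because *Mest* alone of the 9 rose (plus strand, chr6:30737800-30738099), and it holds 17 CG pairs, as does the window that begins 3 bases on. The other window of *Mest* holds 8, and over all windows the median is 7 and the upper quartile 20. *Mest* also carries a microRNA in its gene body (chr6:30741314-30741336 and chr6:30741354-30741375, plus strand), whose arms are given with the seed in capitals and which these libraries do not measure. The 4 arms inside *H19* and *Mest* have 4 different seeds. *Meg3* (1 hairpin) and *Rian* (3 hairpins) also hold microRNAs, whose sequences are not shown.
Mest promoter: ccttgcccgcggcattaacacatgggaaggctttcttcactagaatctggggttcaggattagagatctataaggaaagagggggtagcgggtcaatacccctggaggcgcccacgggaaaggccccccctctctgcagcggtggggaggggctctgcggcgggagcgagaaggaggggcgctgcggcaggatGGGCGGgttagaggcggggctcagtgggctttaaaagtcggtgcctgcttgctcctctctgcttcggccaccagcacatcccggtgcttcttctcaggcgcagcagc
mmu-miR-335-5p: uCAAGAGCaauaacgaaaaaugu
mmu-miR-335-3p: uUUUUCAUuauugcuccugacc

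**Figure D2:**
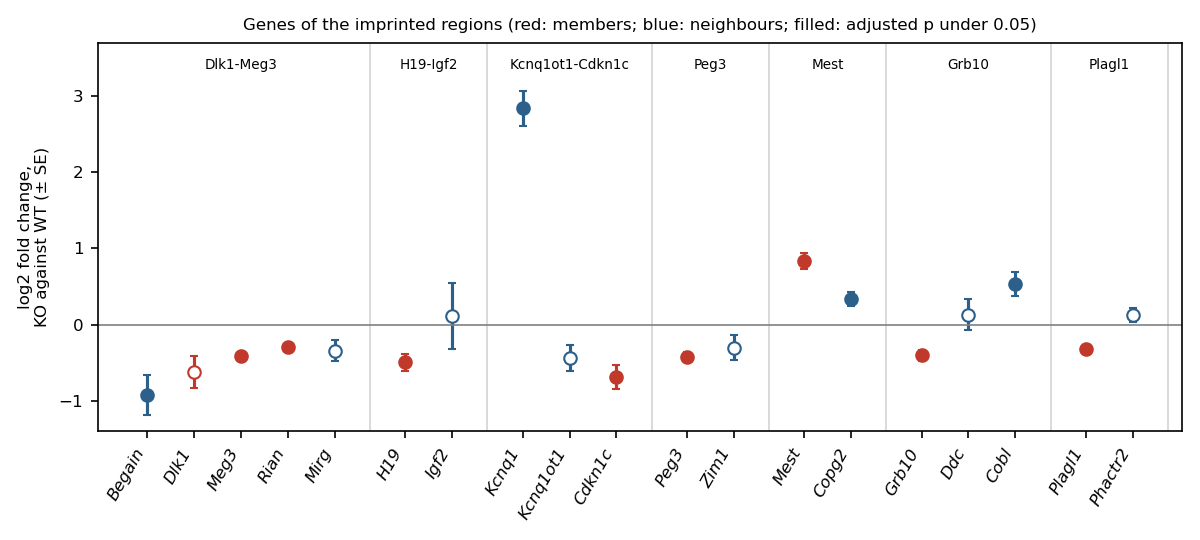
Log2 fold change of KO against WT libraries (vertical axis, ± standard error) for the 9 genes in red and tested neighbours in blue, grouped by imprinted region, with filled points at an adjusted p under 0.05. *Mest* (0.83) is the highest of the 9 and *Cdkn1c* (-0.69) the lowest, and *Kcnq1*, in whose body the antisense RNA *Kcnq1ot1* lies, is at 2.84.

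Levels can be compared between genes per length. In the deposited FPKM (fragments per kilobase, scaled to the library total) of the libraries labelled WT, *Grb10* was highest at 55.3 ± 1.73 (SD, n = 3), followed by *Meg3* at 16.6 ± 0.104, *Rian* at 12.3 ± 0.632, *Peg3* at 11.7 ± 0.536 and *H19* at 10.4 ± 1.73. *Plagl1* followed at 4.05 ± 0.224, *Cdkn1c* at 2.71 ± 0.383, *Mest* at 2.40 ± 0.311 and *Dlk1* at 0.588 ± 0.152. *Rian*, *Peg3* and *H19* overlapped between libraries, as did *Cdkn1c* and *Mest*, so these neighbours have no order. In the libraries labelled KO, *Mest* at 4.37 ± 0.0792 stood above *Plagl1* at 3.31 ± 0.117 and *Cdkn1c* at 1.73 ± 0.150, and the rest were *Grb10* at 42.8 ± 3.94, *Meg3* at 12.8 ± 0.805, *Rian* at 10.2 ± 0.487, *Peg3* at 8.92 ± 0.498, *H19* at 7.59 ± 0.346 and *Dlk1* at 0.393 ± 0.0566, with no overlap between neighbours in this order. *Mest* thus lay below *Plagl1* in every WT library and above it in every KO library.

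The gene length behind these FPKM values affects the order. For *H19* it was 5688 bases, against 2460 bases when overlapping exons of its transcripts are merged in GENCODE M21, and for *Dlk1* it was 16789 against 5657 bases. On a scale of CPM per kilobase of merged exons, which was chosen after seeing the data, *H19* moved from the fifth place of the 9 to a level like that of *Meg3*, with 24.2 beside 23.4 in WT libraries and 17.5 beside 18.0 in KO libraries, and the ranges of the pair overlapped in both labels. The change of place between *Mest* and *Plagl1* was the same on this scale, with 4.30 and 8.37 in WT libraries and 7.84 and 6.83 in KO libraries. The fold changes from counts do not use the gene length, while those on the log2(FPKM + 1) scale do.

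**Figure D3:**
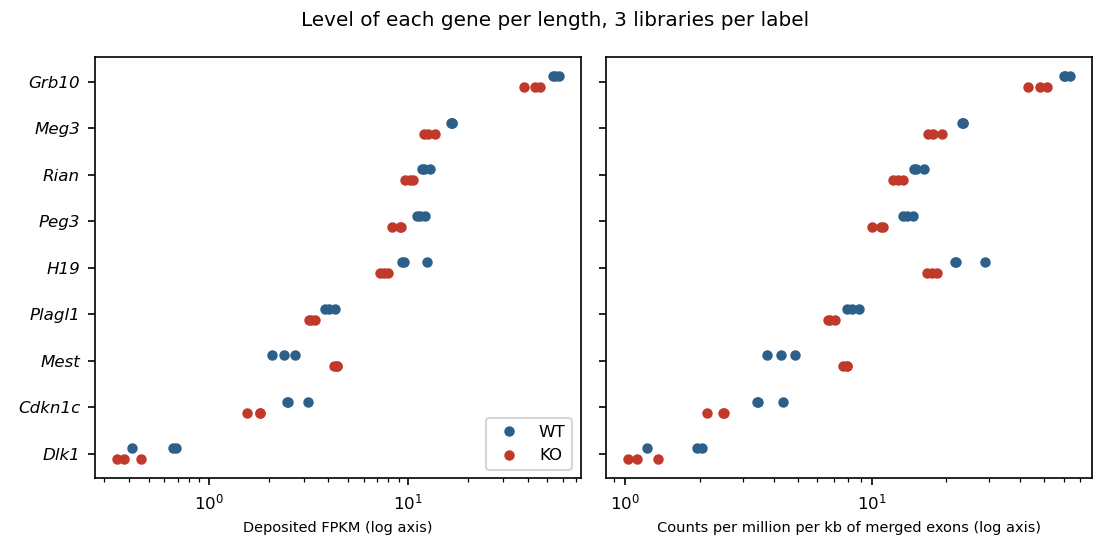
Level of each gene in the 3 WT libraries (blue) and 3 KO libraries (red) as deposited FPKM (left) and as CPM per kilobase of merged exons (right), both on log axes. *Grb10* is highest and *Dlk1* lowest on both scales, and *H19* stands level with *Meg3* only on the right.

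The likeness of patterns was read as the root mean square difference of log2 CPM over the 6 libraries, each gene centred on its own mean, among 11289 other genes whose mean FPKM reached 1. The nearest gene to *Mest* was *Incenp*, a component of the chromosomal passenger complex of dividing cells, at 0.0394, followed by *Efna1* (0.0733) and *Ercc6l* (0.0818). The nearest to *Meg3* were *Snhg18*, *Zfp651* and *Loxl2* (0.0123 to 0.0139), to *Grb10* *Tpm1*, *Klhl13* and *Kif1a* (0.0199 to 0.0223), to *Peg3* *Sox12*, *Fam110c* and *Gxylt2* (0.0224 to 0.0259), to *Rian* *Ctage5*, *Abcc3* and *Dpy19l1* (0.0178 to 0.0236), and to *Plagl1* *Stard10*, *Dpy19l1* and *Pdgfra*, a receptor that marks fibroblasts (0.0119 to 0.0274). The nearest to *H19* were *Hk3*, *Mlycd* and *Zfp532* (0.0511 to 0.0640), to *Cdkn1c* *Prss12*, *Kcnj4* and *Emb* (0.0743 to 0.0829), and to *Dlk1* *Smim14*, *Lysmd2* and *Apobec2* (0.115 to 0.140). Among the 9 themselves, *Rian* and *Plagl1* were nearest to each other (0.0315), and for *Mest* the nearest, *Rian*, was at 0.582. With 6 libraries many genes lie this close, and the measure is a description.

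Genes on which the 9 act, or beside which they act, were read as a list. Of 30 tested, 6 rose and 9 fell, beside 17.7% higher and 12.5% lower over all genes tested. With marker scaling 15 of the 30 passed, each of them higher, and 6 were lower without KO replicate 1, KO replicate 3, WT replicate 2 or WT replicate 3. Of the 11 genes of the IGF axis, in which *Grb10* dampens the receptors and *Igf2* is the partner of *H19*, 6 fell and none rose. *Irs1*, which relays the signal of these receptors, had 24.0, 24.8 and 25.0 CPM in WT libraries and 16.5, 17.2 and 15.9 CPM in KO libraries (log2 fold change -0.57, SE 0.079, edgeR adjusted p = 0.00122). The receptor genes *Igf1r* and *Insr* had log2 fold changes of -0.24 (adjusted p = 0.122) and -0.036 (adjusted p = 0.718), while *Igf2r*, which removes IGF2 and is imprinted itself, fell by 0.42 (adjusted p = 0.00128) and *Igf1* by 0.31 (adjusted p = 0.0212).

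Of the 12 cyclins, kinases and sister inhibitors that stand beside *Cdkn1c*, 4 rose and 1 fell, beside the same 17.7% and 12.5% of all genes. *Ccnd1*, a D-type cyclin, had 44.4, 44.9 and 49.9 CPM in WT libraries and 321, 227 and 268 CPM in KO libraries, a log2 fold change of 2.55 (SE 0.12, edgeR adjusted p = 7.9e-06). *Cdk2*, *Ccna2* and *Cdk1* rose by 0.67, 0.49 and 0.47, and the last pair also stands on the mitotic list. Of the other D-type cyclins, *Ccnd2* fell by 0.30 and *Ccnd3* had a log2 fold change of 0.21 (edgeR adjusted p = 0.668). The sister inhibitors *Cdkn1a* and *Cdkn1b* had log2 fold changes of -0.14 (adjusted p = 0.064) and 0.14 (adjusted p = 0.276). Of the receptors whose ligands *Dlk1* resembles, *Notch1* and *Notch4* rose by 1.09 and 0.75, and *Notch2* and *Notch3* fell by 0.24 and 0.42. Several of these genes overlap others on the opposite strand. Summed over the 6 libraries, the partner had 2529 counts for *Ccna2* (4565), 1218 for *Ccnd1* (13092) and 509 for *Igf2r* (39121), and at most 53 for *Ccnd2*, *Igf1*, *Insr*, *Irs1*, *Notch1* and *Notch3*.

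**Figure D4:**
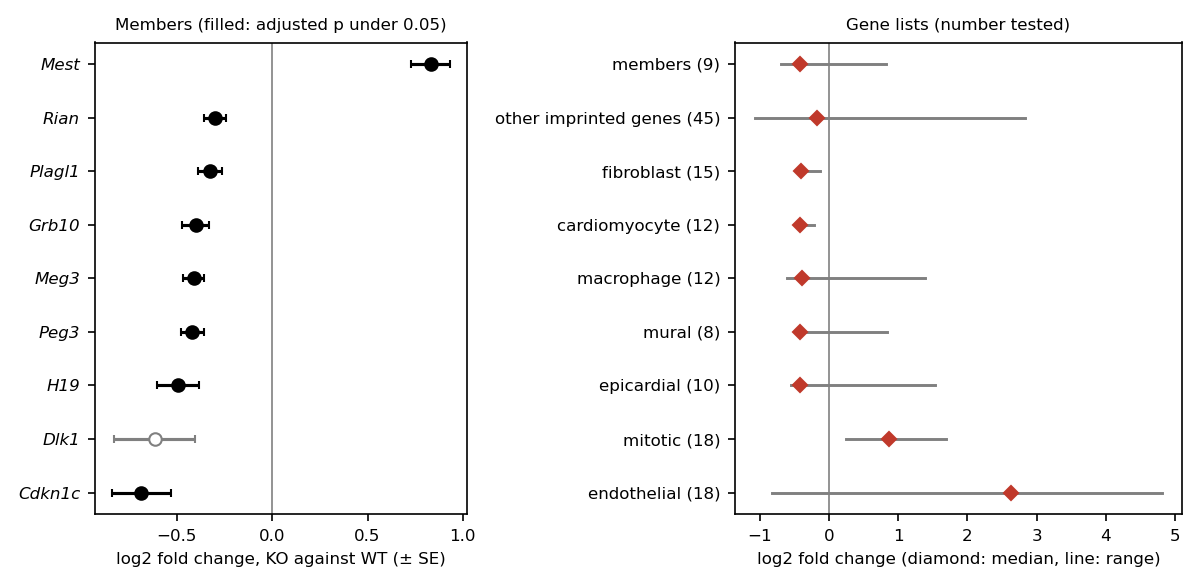
Left, log2 fold change of KO against WT libraries (± standard error) of the 9 genes, filled at an adjusted p under 0.05, and right, the median (diamond) and range (line) of gene lists with the number tested. The medians of the fibroblast, cardiomyocyte, macrophage, mural and epicardial lists lie between -0.42 and -0.39, beside -0.41 for the 9 genes.

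Of the other 65 imprinted genes in the table, 45 could be tested, with 12 lower and 6 higher, 27 not past the threshold and a median log2 fold change of -0.17, beside 12.5% lower and 17.7% higher over all genes tested. With marker scaling 20 of the 45 passed, each of them higher. The 6 higher were 3 without KO replicate 1, WT replicate 1 or WT replicate 3 and 2 without KO replicate 3 or WT replicate 2, while the number lower ran from 9 to 12 as each library was left out. Where the mean FPKM reached 1, the largest falls were in *Peg12* (-0.62), *Peg13* (-0.49), *Ndn* (-0.47), a growth-restraining gene of the *Snrpn* region, and *Slc38a4* (-0.42), an amino acid transporter. *Ndn* had 69.0, 71.9 and 69.7 CPM in WT libraries and 49.2, 54.6 and 48.3 CPM in KO libraries. *Peg13* lies within *Trappc9* on the same strand (1446 and 2744 counts summed over the libraries), so its count is uncertain. Of the 6 rises, 4 were small, in *Cobl* (0.53), *Copg2* (0.33), *Nap1l4* (0.21) and *Blcap* (0.20), and those of *Kcnq1* (2.84, SE 0.23, edgeR adjusted p = 7.8e-05), a potassium channel gene, and *Ano1* (2.51, SE 0.27, adjusted p = 3.2e-04), a chloride channel gene, were larger. *Kcnq1* had 1.54, 1.16 and 1.78 CPM in WT libraries and 13.3, 8.70 and 10.2 CPM in KO libraries, while the RNA *Kcnq1ot1*, read from the other strand within it, had a log2 fold change of -0.44 (adjusted p = 0.0889). Summed over the libraries, *Kcnq1* had 500 counts and *Kcnq1ot1* 846, and as with *Mest* reads of the pair could be shared. *Dcn*, which is imprinted in the placenta and also stands on the fibroblast list, had a log2 fold change of -0.40.

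**Figure D5:**
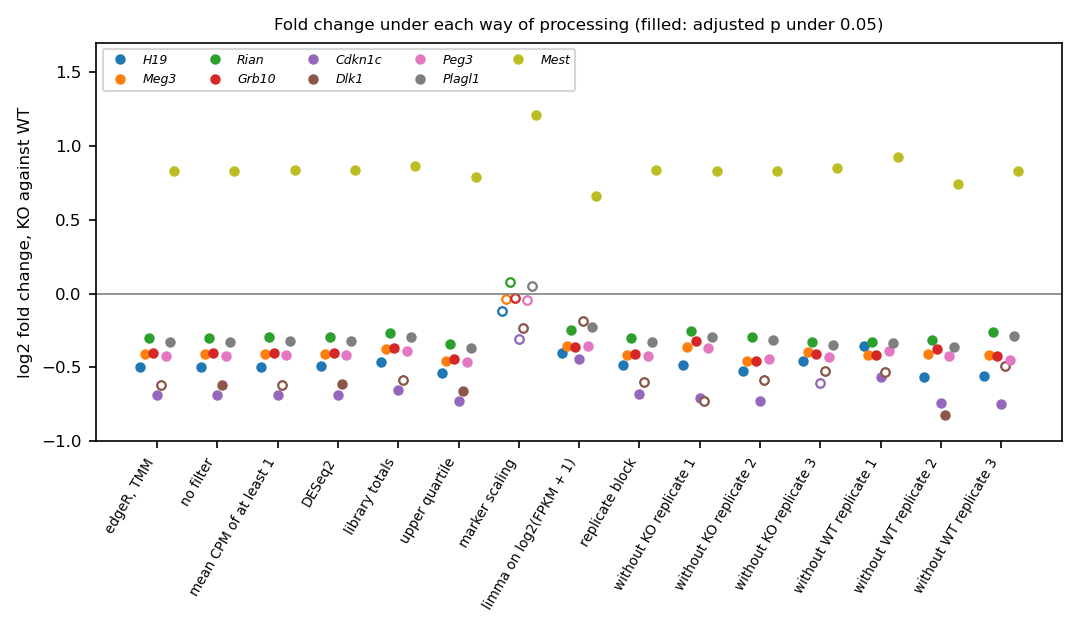
Log2 fold change of each of the 9 genes (vertical axis) under the test with edgeR and TMM and 14 alternatives (horizontal axis), with filled points at an adjusted p under 0.05. *Mest* is filled and above 0 throughout, and the other 8 genes move up to between -0.31 and 0.078 with marker scaling.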

How the data were processed

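RNA-seq libraries were made from oligo(dT)-selected RNA with a strand-keeping kit. The authors used HISAT2 with its defaults on mm10 for the paired-end reads, and deposited whole-number counts per gene and FPKM values for each of 6 libraries. The counting tool, annotation release and strand setting are not given in the sources used here, and the submitters' processing notes also name edgeR. The deposited FPKM are counts divided by the library total and by a gene length that, for 69.3% of 14040 genes compared with GENCODE M21, equals within 1% the sum of all distinct exons, overlapping exons included.

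The main test was run on the counts in R 4.3.3 with edgeR 4.0.16 (low counts removed by filterByExpr, TMM, glmQLFit, glmQLFTest, Benjamini-Hochberg over all 14084 genes tested, all 6 libraries, no covariate). The alternatives tried were DESeq2 1.42.0, limma 3.58.1 on log2(FPKM + 1), scaling by library totals, upper quartile or 24 cardiomyocyte and macrophage markers, all genes unfiltered, genes whose mean CPM reached 1, a replicate block, leaving out each library, and a fold above 2 in addition. edgeR, DESeq2 and limma were tested on simulated data with known changes. Replicates of a label differed by more than sampling noise (chi-square tests with an unadjusted p under 0.05 in 22.5% to 32.1% of genes), so each counts as 1 library. A count of 0 would allow up to 3 counts, or 0.196 to 0.249 CPM, which covers counting error only.

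The members and gene lists were chosen with earlier results of these data known. Named genes were the 9 members, *Kdm5b*, genes beside the members, the up to 6 largest changes of each list past the threshold with a mean FPKM of at least 1, genes of the partner and maintenance lists, and the 3 genes nearest in pattern to each member. Other genes named, which are *Dcn*, *Mkrn3*, *Snrpn*, *Snhg14*, *Atp10a*, *Ube3a*, *Nap1l4* and *Blcap*, were chosen after their values were seen.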

Additional observations from a re-analysis of the deposited data

How the results depend on the processing

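All 9 genes kept their direction in every fit but marker scaling, and the 8 called kept their call in every fit but that one and, for *Cdkn1c*, the fit without KO replicate 3. With each library left out in turn, log2 fold changes ran from -0.75 to -0.57 for *Cdkn1c*, from -0.82 to -0.49 for *Dlk1*, from -0.57 to -0.35 for *H19*, and from 0.74 to 0.93 for *Mest*. They ran from -0.46 to -0.32 for *Grb10*, from -0.46 to -0.36 for *Meg3* and from -0.45 to -0.37 for *Peg3*. For *Plagl1* they ran from -0.36 to -0.28, and for *Rian* from -0.33 to -0.26. The smallest falls of *Grb10*, *Meg3*, *Peg3* and *Rian* in these fits were those without KO replicate 1. *Dlk1* passed the threshold with no filter (-0.62), DESeq2 (-0.61), the upper quartile (-0.66) and without WT replicate 2 (-0.82). With marker scaling the values were -0.12 (*H19*), -0.036 (*Meg3*), -0.043 (*Peg3*), -0.028 (*Grb10*), -0.31 (*Cdkn1c*), -0.24 (*Dlk1*) and, above 0, 0.078 (*Rian*) and 0.052 (*Plagl1*), which follows from a scaling that moves all genes up. *Kdm5b* (0.16), *Mirg* (0.031), *Zim1* (0.074) and *Trim28* (0.15) were above 0 there too. With each library left out, *Igf2* ran from -0.30 (without WT replicate 3) to 0.39 and was also below 0 without KO replicate 3 (-0.14). Marker scaling left 1 of the 9 genes called and gave 8251 calls among all genes (8187 higher, 64 lower) and 10 among the maintenance genes. A fold above 2 in addition left 0 of the 9 genes with edgeR (9 had an unadjusted p under 0.05, and DESeq2 called 9 before the fold was asked), 882 of all genes, 3 other imprinted, 2 partner and 0 maintenance genes, because the falls and the rise are smaller than that. Merged exon lengths gave 54.5 for *Grb10*, 20.9 for *H19*, 20.7 for *Meg3*, 14.1 for *Rian*, 12.3 for *Peg3*, 7.60 for *Plagl1*, 6.07 for *Mest*, 3.06 for *Cdkn1c* and 1.45 for *Dlk1*, as means of 6 libraries. The replicate numbers did not pair the libraries (correlations of 0.0021 to 0.0347 between same-numbered libraries), and with the replicate block 8 of the 9 genes were called, with *Mest* at 0.84 and *Dlk1* at -0.60. Under the block *Begain*, *Copg2* and *Cobl* were not called (adjusted p = 0.0661, 0.0593 and 0.0693 from edgeR), while *Kdm5b* was (adjusted p = 0.0271). The lowest counts among the 9 genes were those of *Cdkn1c* and *Dlk1*, where counting error is largest relative to the value.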

Other observations

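Genes for proteins that write, copy, guard or remove DNA methylation or act at imprinted regions were read as a list, of which 14 of 16 could be tested, and in KO libraries 5 rose and 1 fell, beside 17.7% higher and 12.5% lower over all genes tested. *Dnmt1*, the methyltransferase that copies methylation after replication, had 119, 108 and 112 CPM in WT libraries and 186, 166 and 183 CPM in KO libraries (log2 fold change 0.66, SE 0.062, edgeR adjusted p = 1.8e-04). Its partner *Uhrf1* rose by 0.88 (adjusted p = 9.1e-05), from 41.3, 39.7 and 45.1 CPM to 76.0, 73.2 and 82.3 CPM. *Zfp57*, a zinc finger protein that guards imprinted regions, rose by 0.88 (adjusted p = 0.00467), with 21.6, 31.7 and 19.5 CPM in WT libraries and 44.9, 46.7 and 42.8 CPM in KO libraries. *Tet2*, which oxidises DNA methylation, and *Smchd1* rose by 0.73 and 0.44. *Trim28*, the corepressor that *Zfp57* recruits, fell by 0.23 (adjusted p = 0.0166), did not pass without KO replicate 3 (adjusted p = 0.0507) or without WT replicate 3 (adjusted p = 0.0608), and had a log2 fold change of 0.15 with marker scaling. *Ctcf* and *Zfp445* had values of 0.054 and -0.0093 and did not pass. *Dnmt3a* differed within both labels, with 580 to 1242 counts in KO and 614 to 1554 in WT libraries. DNA methylation was not measured here.

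In the *Snrpn* region of chromosome 7, 4 of the 7 listed genes tested fell, beside 12.5% of all genes, and the region was chosen after its values were seen. *Ndn*, *Peg12*, *Snrpn* (log2 fold change -0.41, edgeR adjusted p = 0.0342) and *Mkrn3* (-1.06, adjusted p = 0.0216, at 8 to 26 counts per library) fell, and *Ube3a* did not pass, with 1314 counts in WT replicate 3 against 465 and 632 in the other WT libraries. *Snhg14* (-0.60, adjusted p = 0.166) and *Atp10a* (-0.012, adjusted p = 0.932) did not pass. *Snrpn* overlaps another annotated gene, so its count is uncertain. WT replicate 3 was thus apart from the other WT libraries both in *Ube3a* and in *Igf2*, at 228 counts against 891 and 935. This was not particular to that library. WT replicate 2 stood apart in *Nedd4*, at 23842 counts against 14205 and 14060. It also did so in *Dnmt3a*, at 614 against 1554 and 1531.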
